A study of Mus musculus with 6 samples.

Results

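The genes described here encode the Friend of GATA (FOG) cofactors and the core of the nucleosome remodelling and deacetylase (NuRD) complex, in FLK1+ mesodermal cells with and without the transcription factor SCL. The 10 genes were taken by symbol: Zfpm1 (FOG1), Zfpm2 (FOG2), Chd4, Mta1, Mta2, Mta3, Mbd3, Gatad2a, Rbbp4 and Rbbp7. All 10 were among the 14005 genes listed, and all 10 passed the filter on low values that left 13991 genes to test. Levels are in CPM, TMM-normalized read counts scaled to a common library size, and the filter asked for 0.5 CPM or more in 3 or more libraries.

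The libraries were RNA-seq of FLK1+ cells sorted from embryoid bodies (EBs) at day 3.5 of embryonic stem (ES) cell differentiation. Of the 6 libraries, 3 came from WT cells of the J1 line and 3 from an Scl-/- line that lacks functional Scl (Tal1), with a strain label that reads C57Bl/6 X Sv129 in 3 libraries and ends in Sv130, Sv131 or Sv132 in the others. Each genotype was represented by a line of its own, so the effect of the genotype and any other difference between the lines cannot be told apart. Same-numbered libraries of the groups deviated together, and the fit across all genes was therefore made without and with the replicate number as a block. Ratios within a library were compared without it.

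FOG1 and FOG2 are zinc finger proteins that do not bind DNA themselves but bind the amino-terminal zinc finger of GATA factors, and through a short motif at their own amino terminus they bring in NuRD. FOG1 is best known as the partner of GATA1 in red cells and megakaryocytes, and FOG2 as a partner of GATA4 in the heart. NuRD joins a chromatin remodelling ATPase (CHD3, CHD4 or CHD5) to histone deacetylases (HDAC1 and HDAC2) on a scaffold of MTA proteins, with MBD2 or MBD3, GATAD2A or GATAD2B and the histone-binding proteins RBBP4 and RBBP7. The question of the comparison is how the levels of these corepressor genes stood in FLK1+ mesodermal cells without SCL.

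The 250 bases before the start of Zfpm1 are shown because Zfpm1 is the member with the smallest adjusted p below, and those of Chd4 because it is the most highly expressed NuRD gene and did not pass the test. Both come from RefSeq on GRCm38.p6, a different build from that of the expression table, and run 5′ to 3′ on the strand of the gene. The Zfpm1 stretch is chr8:122281891-122282140 (plus strand) and that of Chd4, before the first of its annotated starts, is chr6:125095731-125095980 (plus strand). Capitals mark each match, on either strand, to the E-box CANNTG, the motif recognised by SCL and other bHLH dimers, or to AGATAA, which is recognised by the zinc fingers of GATA factors.
Zfpm1: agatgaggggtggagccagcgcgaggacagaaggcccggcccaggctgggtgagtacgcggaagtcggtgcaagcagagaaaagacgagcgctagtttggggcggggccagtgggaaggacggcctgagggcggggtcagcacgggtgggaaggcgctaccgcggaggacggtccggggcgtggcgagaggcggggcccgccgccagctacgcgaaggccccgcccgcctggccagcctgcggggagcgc
Chd4: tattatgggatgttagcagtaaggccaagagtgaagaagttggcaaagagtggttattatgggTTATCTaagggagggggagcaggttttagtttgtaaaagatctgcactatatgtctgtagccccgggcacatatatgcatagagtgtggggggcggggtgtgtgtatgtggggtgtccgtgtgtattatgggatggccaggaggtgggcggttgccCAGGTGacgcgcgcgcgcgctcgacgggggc
The Zfpm1 stretch had a GC content of 73.2% and held no match to either motif. CANNTG was present in 66.2% and AGATAA in 9.99% of the upstream stretches of the same length of 32851 promoters. The Chd4 stretch, with a GC content of 54.0%, held 1 match to CANNTG and 1 to AGATAA. The stretch before the other annotated start of Chd4, with a GC content of 67.6%, held the same match to CANNTG and none to AGATAA. RefSeq entries were matched for 8 of the 10 genes, Zfpm2 and Mta3 being the others. A match is a run of letters and not a measured binding site, and the absence of a match concerns these bases alone.

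To check the samples, Tal1 had 182 to 306 CPM in the WT libraries and 5.68 to 9.35 CPM in the Scl-/- libraries. The reads on listed genes were 38623641 to 47621120 per library, so that 3 reads correspond to 0.0615 to 0.0784 CPM, a floor that covers counting error only. Kdr, which encodes FLK1 itself, had 724 to 868 CPM over the 6 libraries and did not pass the test, with a log2 fold change of -0.15. The other 4 markers of FLK1+ mesoderm (Etv2, T, Mesp1 and Pdgfra) were higher in Scl-/- cells with the block. All 6 blood markers in the table were lower with the block, their summed level being 28.7 to 79.8 CPM in WT and 8.65 to 11.6 CPM in Scl-/- libraries, and so were all 5 endothelial markers (112 to 285 and 12.1 to 50.5 CPM). Hbb-bh1 was listed at 0 in every Scl-/- library. Of 5 cardiac markers in the table, Myl7 was higher with the block and the other 4 did not pass the test, while 2 of 3 pluripotency markers were higher with the block. Pax6, of the neuroectoderm, did not pass, and Sox17, of the endoderm, was lower with the block. Whether any of these cell types had a part in the levels below was not tested.

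Zfpm1 was lower in Scl-/- cells in every replicate pair, and was called with the block but not without it. Zfpm1 (chr8:124806039-124861146 of mm9, plus strand) stood at 257, 205 and 301 CPM in the 3 WT libraries, replicates 1 to 3, and at 138, 156 and 185 CPM in the Scl-/- replicates. Every Scl-/- library lay below every WT library, and the level in Scl-/- cells was 62.8% of that in WT cells. The counts behind these values were large, from 6433 to 12398 reads per library, so the spread between replicates and not counting sets the precision.

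On the log2(CPM + 0.5) scale the log2 fold change of Zfpm1 was -0.66, with a standard error of 0.17 and an adjusted p of 0.0991 (limma without the block). With the block the standard error was 0.092 and the adjusted p 0.00216, and the 95% interval ran from -0.87 to -0.45, or 54.5% to 73.1% of the WT level. The log2 differences within the replicate pairs were -0.89, -0.40 and -0.70. All pairs were lower, the pair of replicate 2 the least. WT replicate 2 had the lowest Zfpm1 level of the WT libraries, and it also had the lowest sums of blood markers (28.7 CPM against 58.3 and 79.8) and of endothelial markers (112 CPM against 210 and 285). The Scl-/- libraries did not share this order, since Zfpm1 was lowest in replicate 1, where the blood sum was highest (11.6 CPM), and both the blood sum (8.65 CPM) and the endothelial sum (12.1 CPM against 32.9 and 50.5) were lowest in replicate 2. In a bulk sample fewer cells of a type and less RNA per cell cannot be told apart, and the part of these cell types in the Zfpm1 difference was not tested.

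Zfpm2 was likewise lower in every pair and called only with the block, from a level far below that of its paralog. Zfpm2 (chr15:40486588-40936138 of mm9, plus strand) stood at 4.16, 3.03 and 2.53 CPM in the 3 WT libraries and at 1.56, 1.72 and 1.88 CPM in the Scl-/- replicates, which are 104 to 166 reads and 71 to 83 reads. The groups did not overlap, and the Scl-/- level was 53.0% of the WT level.

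The log2 fold change of Zfpm2 was -0.73 with a standard error of 0.21 and an adjusted p of 0.136 without the block, and 0.19 and 0.0276 with it (95% interval -1.17 to -0.29). Within pairs it was -1.18, -0.67 and -0.34, and the call was lost when both libraries of replicate 1 (adjusted p = 0.0945) or of replicate 2 (adjusted p = 0.128) were left out of the fit with the block, whereas that of Zfpm1 was kept in all 3 such fits. The pseudocount understates the change of a gene at this level.

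Per kb of exon, Zfpm1 took 99.3% ± 0.22 (SD, n = 3) of the summed FOG level in WT and 99.4% ± 0.030 in Scl-/- libraries, so that nearly all FOG transcript was that of Zfpm1 in each group. The log2 ratio of Zfpm1 to Zfpm2 was 0.22 higher in Scl-/- libraries, a difference within the spread between libraries (two-sided exact permutation test, p = 0.5, adjusted p = 0.571 over 8 ratios of paralogs, where the smallest p that 3 against 3 allows is 0.10).

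**Figure D1:**
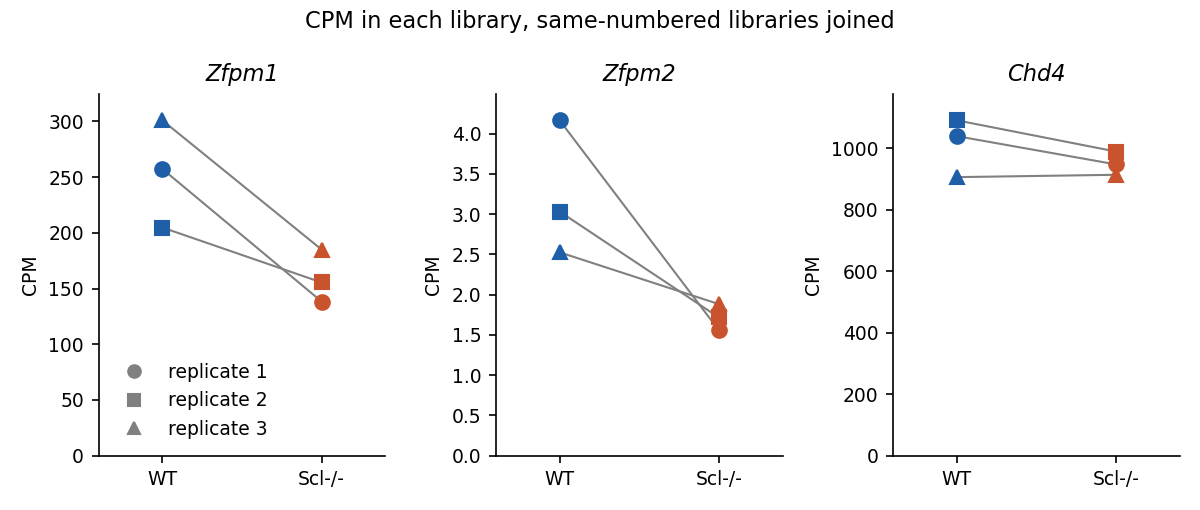
CPM of Zfpm1, Zfpm2 and Chd4 in each library, on linear axes that start at 0, with 1 symbol per replicate number and lines joining same-numbered WT (blue) and Scl-/- (orange) libraries. Every line of Zfpm1 (205 to 301 CPM in WT, 138 to 185 CPM in Scl-/-) and of Zfpm2 falls, while the lines of Chd4 (907 to 1092 CPM in WT, 914 to 990 CPM in Scl-/-) fall for replicates 1 and 2 and rise slightly for replicate 3.

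None of the 8 NuRD genes passed the test, and the WT and Scl-/- libraries overlapped for each of them. Their log2 fold changes lay between -0.12 and 0.11, with a median size of 0.031 against 0.155 over all genes tested. With the block, the 95% intervals of all 8 lay between -0.29 and 0.26, which is 81.9% to 120% of the WT level, and without it between -0.41 and 0.37. An interval of this width leaves room for small differences in either direction. Replicates were close, with a median SD over the 8 genes of 0.11 (log2) in WT and 0.094 in Scl-/- libraries, against 0.18 and 0.19 over all genes tested. The comparisons of fold change and SD with all genes were not matched for expression level.

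Chd4 (chr6:125045999-125080609, plus strand), the remodelling ATPase of the complex, had 1040, 1092 and 907 CPM in WT and 948, 990 and 914 CPM in Scl-/- replicates 1 to 3. Scl-/- cells were lower in pairs 1 and 2 and slightly higher in pair 3, and the log2 fold change was -0.088 (95% interval with the block -0.24 to 0.061).

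The MTA scaffold genes were read as a group of 3. Mta1 (chr12:114336489-114375417, plus strand) had 255, 239 and 274 CPM in WT and 265, 253 and 264 CPM in Scl-/- libraries, with a log2 fold change of 0.028. Mta2 (chr19:9016365-9026793, plus strand) had 233, 238 and 245 CPM in WT and 263, 269 and 243 CPM in Scl-/- replicates 1 to 3, with a log2 fold change of 0.11 (-0.035 to 0.26 with the block). Mta3 (chr17:84105503-84223055, plus strand) had 85.1, 90.7 and 75.8 CPM in WT and 83.5, 75.4 and 71.7 CPM in Scl-/- replicates 1 to 3, and was lower in all 3 pairs with a log2 fold change of -0.12 (-0.29 to 0.040 with the block, adjusted p = 0.251). Mta2 and Mta3 had the largest fold changes of the 8 NuRD genes, in opposite directions, and neither passed the test.

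Mbd3 (chr10:79855284-79862295, minus strand), the MBD subunit, had 161, 136 and 209 CPM in WT and 161, 149 and 182 CPM in Scl-/- replicates 1 to 3. Its coefficient of variation was 22.1% in WT, the highest of the 8 genes there, while in Scl-/- libraries that of Rbbp4 was the highest (11.4%). For Mbd3, same-numbered libraries kept their order in the groups, replicate 2 being lowest and replicate 3 highest in each. Its log2 fold change was -0.020. Gatad2a (chr8:72430968-72520278, minus strand), which bridges the MBD and CHD proteins, stood at 487 to 516 CPM in WT and 506 to 521 CPM in Scl-/- libraries, with a log2 fold change of 0.033.

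The histone-binding subunits RBBP4 and RBBP7 also serve in other chromatin complexes, Polycomb repressive complex 2 among them. Rbbp4 (chr4:128984344-129012614, minus strand) had 515, 534 and 460 CPM in WT and 527, 539 and 435 CPM in Scl-/- replicates 1 to 3, and Rbbp7 (chrX:159198334-159217024, plus strand) had 297, 313 and 314 CPM and then 317, 314 and 277 CPM. Their log2 fold changes were -0.011 and -0.026. Rbbp4 shares exon bases with Sync and Gm17525, and Rbbp7 with Txlng, all on the opposite strand, and because the sources used here do not state whether counting used strand, reads of these overlaps cannot be assigned. No other member shares exon bases with another annotated gene. Among the other NuRD and partner genes described below, Chd3, Chd5, Gata3, Gata6, Ctbp2, Sall4 and Bcl11a also share exon bases with annotated genes. For Gata3 and Ctbp2 these include a gene on the same strand.

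Of the 10 genes, 0 were called by limma without the block (adjusted p under 0.05 with a log2 fold change beyond 0.48 in either direction), where 2.36% of the genes tested were called. An unadjusted p under 0.05 without the block was reached by 2 of the 10, and by 2474 of the 13991 genes tested. With the block, 2 of the 10 were called (Zfpm1 and Zfpm2), where 12.6% of all genes were called and 6.6% were called as lower. The same pair, and no further member, passed the adjusted p at any fold change, which 24.2% of all genes did. They were also the only 2 members whose groups did not overlap, as was so for 21.6% of all genes. Read against these shares, 2 of 10 genes is near the background. The same 2 genes were called with the block after each chromosome had been centred on its own median. No member lies on chromosome 1 or 11, whose genes as a whole were shifted in this comparison (medians of -0.29 and 0.31).

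**Figure D2:**
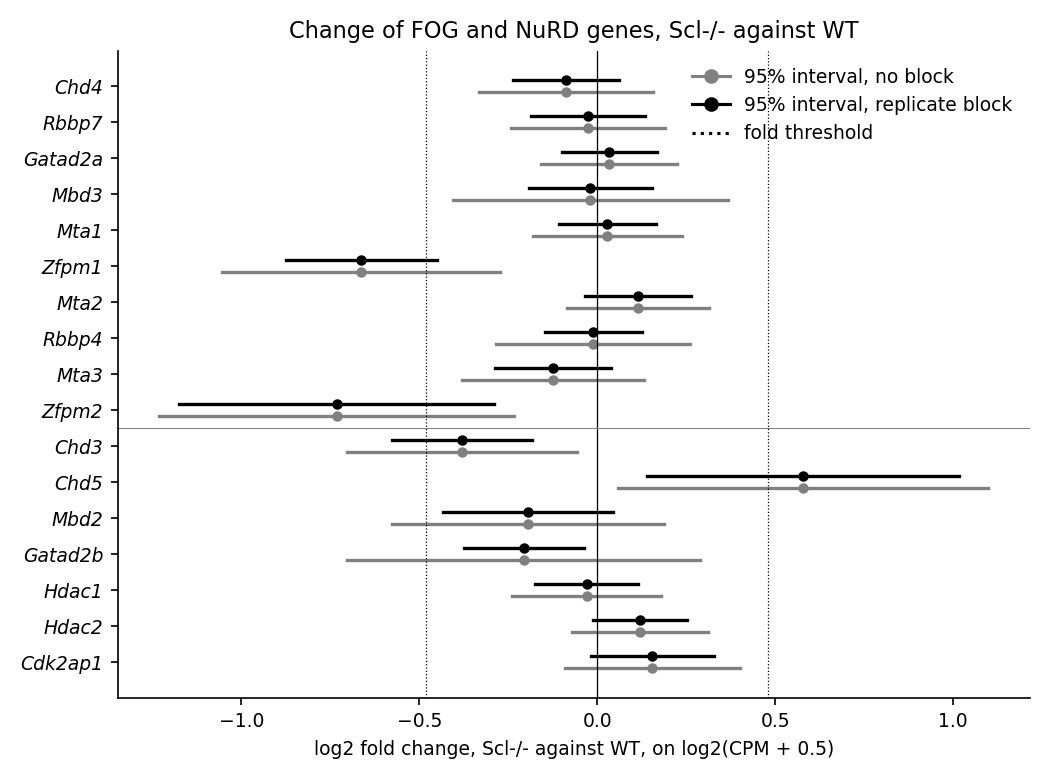
Log2 fold change of the 10 FOG and NuRD genes (above the line) and of 7 further NuRD genes (below it), Scl-/- against WT on log2(CPM + 0.5), with 95% intervals without (grey) and with (black) the replicate block and dotted lines at the threshold of 0.48. Zfpm1 (-0.66) and Zfpm2 (-0.73) lie to the left of 0 with their whole intervals, and the intervals of the other 8 genes of the upper group include 0.

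In the order of levels per kb of exon, Zfpm1 moved from the sixth place in WT to the eighth in Scl-/- libraries. In WT the order was Chd4 (126 ± 11.9 CPM per kb, SD, n = 3), Rbbp7, Gatad2a, Mbd3, Mta1, Zfpm1 (75.1 ± 14.2), Mta2, Rbbp4, Mta3 (12.4 ± 1.11) and Zfpm2 (0.508 ± 0.132). Gatad2a overlapped with Mbd3, Mbd3 with Mta1, Mta1 with Zfpm1, and Mta2 with Rbbp4 in the range of their libraries, while the other neighbours did not overlap. In Scl-/- libraries Zfpm1 (47.1 ± 6.97) stood below Mta2 (63.1 ± 3.41) and overlapped with Rbbp4 (57.2 ± 6.50). Over the 6 libraries, Chd4 ranked 426 and Zfpm1 1121 among the 13991 genes by level per kb, Mta3 ranked 6112 and Zfpm2 13752. These levels rest on the exons of GENCODE vM1, and the annotation behind the table is not given in the sources used here.

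**Figure D3:**
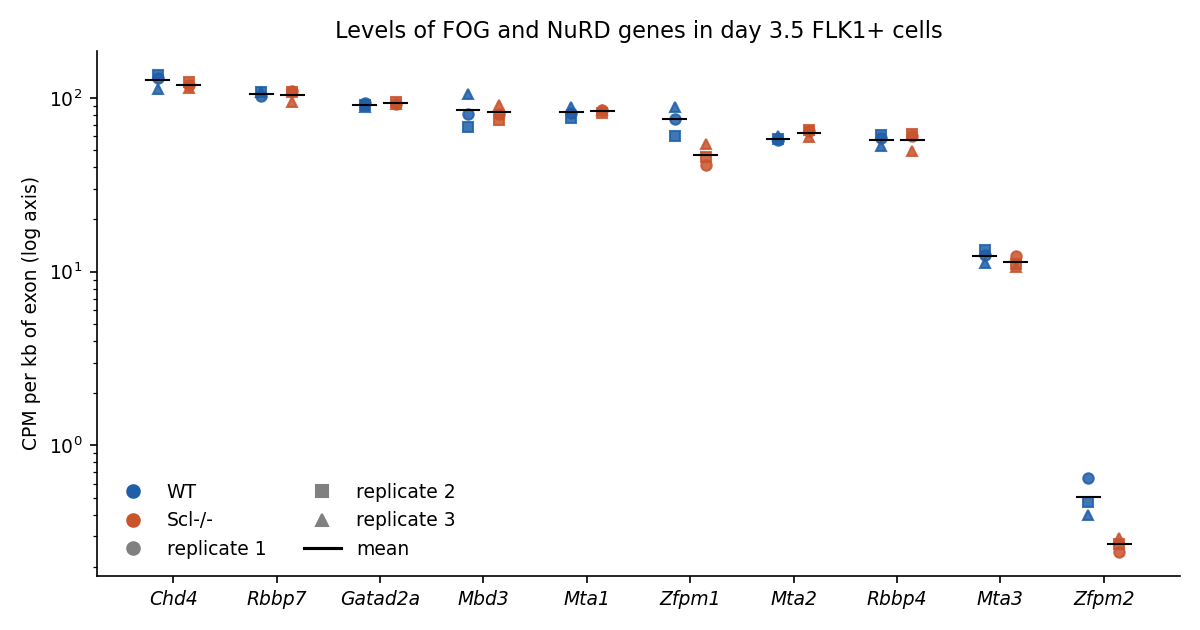
Level of each FOG and NuRD gene in CPM per kb of exon on a log axis, ordered by the WT mean, with WT libraries in blue, Scl-/- libraries in orange, 1 symbol per replicate number and bars at the means. Zfpm1 sits among the NuRD genes (75.1 in WT, 47.1 in Scl-/-), and Zfpm2 lies far below all others (0.508 and 0.270).

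The level of Zfpm1 was then set against that of each NuRD gene within the same library, a comparison chosen after the values were seen. Per kb, there were 0.586, 0.444 and 0.786 Zfpm1 for each Chd4 in WT and 0.346, 0.372 and 0.479 in Scl-/- replicates 1 to 3, and these ranges overlap through WT replicate 2 and Scl-/- replicate 3. For each Mta1 there were 0.925, 0.787 and 1.01 in WT and 0.479, 0.563 and 0.642 in Scl-/- libraries, which do not overlap. The ratio of Zfpm1 was lower in all 3 pairs against each of the 8 NuRD genes, by 0.54 (Mta3) to 0.78 (Mta2) on the log2 scale. All 8 ratios hold the same Zfpm1 values, so they repeat the fall of Zfpm1 and are not independent results. Without WT replicate 3 the log2 difference was -0.34 against Mta3 and -0.37 against Chd4, in place of -0.54 and -0.58. The groups did not overlap for Mta1, Mta2, Mbd3 and Gatad2a (exact permutation p = 0.1 each, the smallest possible) and overlapped for the other 4 (p = 0.2). The adjusted p over the 8 ratios was 0.2 for each, so that a difference between Zfpm1 and NuRD genes in their change was not shown by this test, which could not have reached 0.05 with 3 against 3 libraries.

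Within each NuRD family the dominant paralog by CPM per kb of exon was the same in all 6 libraries. In CPM without division by exon length, Rbbp4 lay above Rbbp7 in every library (means of 503 and 308 in WT). Hdac2 lay above Hdac1 in CPM in every Scl-/- library and in no WT library. Mta2 lay above Mta1 in Scl-/- replicate 2 (269 against 253 CPM). The shares of these families therefore rest on the exon lengths of GENCODE vM1. Per kb, Chd4 made up 90.6% ± 1.03 of the CHD level in WT and 92.0% ± 1.56 in Scl-/- libraries (SD, n = 3), and Mbd3 made up 91.8% ± 1.96 and 92.7% ± 1.79 of the MBD level. Mta1 made up 53.8% ± 1.81 and 53.0% ± 1.77 of the MTA level, Mta2 38.1% and 39.8%, and Mta3 8.10% and 7.15%. Gatad2a (74.3% and 77.4%), Rbbp7 (64.8% and 64.6%) and Hdac1 (58.1% and 55.5%) were the larger members of their families. None of the 8 log2 ratios of paralogs passed the exact permutation test, which cannot go below p = 0.10 with 3 against 3 libraries. This outcome therefore does not show that the ratios were unchanged. Chd4 against Chd3 was 0.30 higher in Scl-/- libraries, 0.59 with chromosome medians removed, and 0.20 (without Scl-/- replicate 1) to 0.46 (without Scl-/- replicate 3) with a library left out. Mta3 against Mta2 was 0.24 lower and lower in 3 of 3 pairs, and Mbd3 against Mbd2 0.18 higher. Hdac1 against Hdac2 was the only ratio whose groups did not overlap, lower by 0.15 in Scl-/- cells (exact permutation p = 0.1, adjusted p = 0.571).

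**Figure D4:**
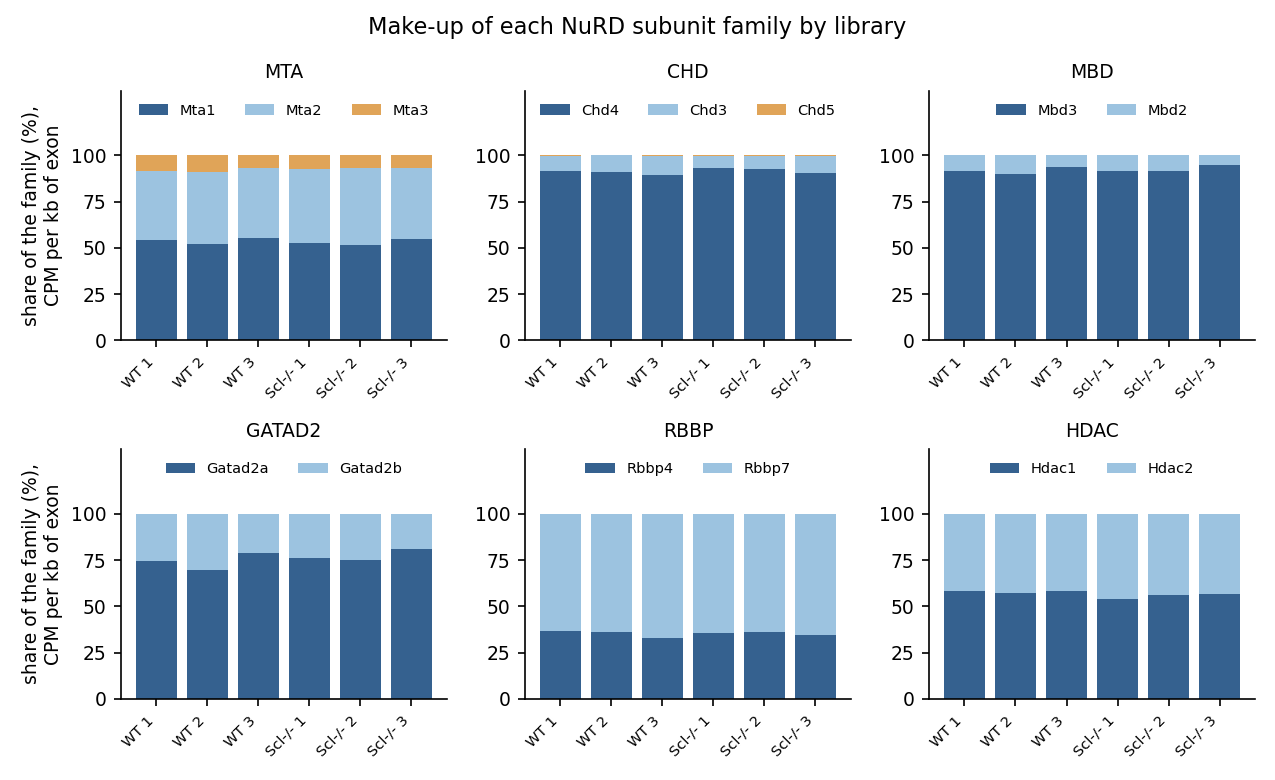
Share of each paralog in its NuRD family (percent of the summed CPM per kb of exon) in each of the 6 libraries, as stacked bars that reach 100%. The largest member is the same in every bar of a family, with Chd4 at 90.6% and 92.0% of the CHD level and Mta3 the smallest MTA share.

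The 7 other NuRD genes gave 0 calls by limma without the block (2 at an unadjusted p under 0.05) and 0 with it (3 at an unadjusted p under 0.05), where 2.36% and 12.6% of all genes were called, and 2474 and 5161 of the 13991 genes had an unadjusted p under 0.05. Chd3, the paralog of Chd4, had 101, 113 and 112 CPM in WT and 72.4, 78.7 and 101 CPM in Scl-/- replicates 1 to 3. The Scl-/- libraries lay below those of WT, with Scl-/- replicate 3 (101.30 CPM) next to WT replicate 1 (101.37 CPM), and its log2 fold change of -0.38 passed the adjusted p with the block (0.0154) but not the fold threshold. Chd3 lies on chromosome 11, whose median was 0.31, and with chromosome medians removed its log2 fold change was -0.69 and it was called without (adjusted p = 0.0251) and with (adjusted p = 0.00146) the block. Chd5, known mainly from neural tissue and testis, was barely expressed, at 1.46 to 2.21 CPM in WT and 2.30 to 3.49 CPM in Scl-/- libraries (log2 fold change 0.58, adjusted p = 0.232 without and 0.0611 with the block). The deacetylase genes Hdac1 and Hdac2 had log2 fold changes of -0.030 and 0.12, with Hdac2 at 117 to 123 CPM in WT and 128 to 134 CPM in Scl-/- libraries. Cdk2ap1 (0.16), Mbd2 (-0.19) and Gatad2b (-0.21, adjusted p = 0.718 without and 0.0768 with the block) completed the list. The groups did not overlap for 4 of the 7 genes (Chd3, Chd5, Hdac2 and Cdk2ap1), as for 21.6% of all genes.

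Of the genes whose proteins FOG binds or that share its NuRD-binding motif, 13 were in the table and Gata5 was not analysed here. Gata1 and Gata2, the GATA genes of blood, were called without the block, where 2.36% of all genes were called, and 7 of the 13 were called with it, where 12.6% were. Gata1 had 6.75, 3.29 and 10.5 CPM in WT and 0.23, 0.15 and 0.20 CPM in Scl-/- replicates 1 to 3 (log2 fold change -3.28, adjusted p = 0.00857 without and 0.000164 with the block). These are 126 to 433 reads in WT and 6 to 11 reads in Scl-/- libraries, and the Scl-/- mean was 2.80% of the WT mean, a larger difference than the log2 fold change gives because of the pseudocount. Gata2 had 265, 180 and 284 CPM and then 71.9, 34.4 and 52.2 CPM (log2 fold change -2.23, adjusted p = 0.0106 without and 1.9e-05 with the block). In the fit without the block, 0 of the 13 were called when WT replicate 1 or WT replicate 3 was left out and 1 when WT replicate 2 was left out. Over all genes, 34, 88 and 281 were called without WT replicates 1, 3 and 2 respectively, against 330 with all libraries. Gata4 (0.55) and Gata6 (0.59), the GATA genes of heart and endoderm, were higher in Scl-/- cells with the block, and Gata3 (-0.33) did not pass. The groups overlapped for Gata4 and Gata6. Their adjusted p was 0.179 and 0.275 without the block, and 0.00239 and 0.00544 with it.

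Zfpm1 was further set against its blood GATA partners within each library. Per kb there were 1.05 ± 0.0815 Zfpm1 for each Gata2 in WT and 3.30 ± 1.30 in Scl-/- libraries (SD, n = 3), and 30.9 ± 12.5 and 622 ± 167 for each Gata1, a ratio that rests on the 6 to 11 Gata1 reads of the Scl-/- libraries. The groups do not overlap for either ratio, with all 3 genes at lower levels in the Scl-/- libraries. These ratios were not tested.

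The genes of the corepressors CtBP1 and CtBP2, which also bind FOG proteins, did not pass the test (log2 fold changes -0.12 and -0.10). Among other zinc finger genes with a FOG-like NuRD-binding motif, Sall2 and Bcl11b were lower and Sall1 was higher in Scl-/- cells with the block. Sall2 had 59.8, 51.8 and 78.5 CPM in WT and 40.3, 31.4 and 51.6 CPM in Scl-/- replicates 1 to 3 (log2 fold change -0.63). Bcl11b, known from T cell development, reached 13.2 CPM in WT and 8.48 CPM in Scl-/- libraries at its highest (-0.91). In neither Sall2 nor Bcl11b did the groups overlap, as was so for 21.6% of all genes. For Sall2, WT replicate 2 (51.82 CPM) lay next to Scl-/- replicate 3 (51.57 CPM). Sall1 had 94.7, 165 and 116 CPM and then 126, 238 and 240 CPM (0.66), with groups that overlapped. Without the block the adjusted p was 0.192 for Sall2, 0.106 for Bcl11b and 0.305 for Sall1. Sall4, a pluripotency factor, was higher by 0.25 with an adjusted p of 0.573 without and 0.0255 with the block, below the fold threshold, while Bcl11a (0.15) and Sall3 (0.026) did not pass. Bcl11a lies on chromosome 11, and its log2 fold change turned to -0.16 with chromosome medians removed.

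The genes whose centred log2 levels lay nearest to those of a member over the 6 libraries were sought among the 13953 genes that averaged 1 CPM or more. Nearest to Zfpm1 were Ptp4a3, Tmem158, Rbm43, Dgkd and Parp1, with root-mean-square differences of 0.065 to 0.091 on the log2 scale, against a median of 0.438 over all genes compared. Dgkd and Parp1 lie on chromosome 1, which as a whole was shifted by -0.29. Nearest to Zfpm2 were Syt14, Fam111a, A330040F15Rik, Notch2 and Gulp1 (0.089 to 0.128, median 0.461). Nearest to Chd4 were Ap3b1, Gm16836, Hipk1, Spin1 and Ccser2 (0.015 to 0.030, median 0.223). These genes were picked as the nearest, so lying far below the median follows from the choice. The likeness is a description of these libraries.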

How the data were processed

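The data were 6 RNA-seq libraries of FLK1+ cells sorted at EB day 3.5, in 2 groups of 3 replicates. The authors mapped reads to mm9 with TopHat2 2.0.8b, removed duplicates, filtered on mapping quality with SAMtools 0.1.19 and deposited TMM-normalized CPM values made with edgeR, per the labels and the study's methods. The counting tool, its annotation and its use of strand are not given in the sources used here. The values were deposited as CPM, and no count test was run. Values that a column takes are whole multiples of 1 step, from which reads were worked out.

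From the deposited CPM, log2(CPM + 0.5) was tested with limma 3.58.1 (R 4.3.3; lmFit, eBayes with an intensity trend) on genes that reached 0.5 CPM in 3 or more libraries, with condition as the only term and, beside it, with the replicate number as a block. Benjamini-Hochberg adjustment covered all 13991 genes. Calls needed an adjusted p under 0.05 together with a log2 fold change beyond 0.48 in either direction. Deviations from group means correlated at 0.587, 0.756 and 0.748 between same-numbered libraries, and at -0.62 to -0.10 between others, and the numbers come from independent differentiations. The script was tested on simulated data. Within-library ratios were compared by exact permutation tests. Exon lengths and positions came from GENCODE vM1 (mm9), which held all 14005 genes.

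The members and lists were chosen with earlier results of these data known. The genes named are the 10 members, the other NuRD, FOG partner, CtBP and NuRD-motif genes, Tal1, the cell type markers, and the 5 genes nearest to Zfpm1, Zfpm2 and Chd4. Alternatives were other pseudocounts (0.1 and 1), no low-value filter or one on a mean of 2 CPM, median-ratio rescaling, no intensity trend, no fold threshold, chromosome medians removed, the block and each library left out. Ratios of Zfpm1 to NuRD genes, and fits with the block without 1 replicate number, were added after seeing the data. Python 3.11.15, NumPy 2.4.6, SciPy 1.17.1, pandas 2.3.3 and Matplotlib 3.10.9 were used.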

Additional observations from a re-analysis of the deposited data

How the results depend on the processing

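Genes called rose from 330 to 1768 with the block, to 1495 with the block and chromosome medians removed, and to 3385 with the block and no fold threshold. Members called rose from 0 to 2, 2 and 2 under these settings, other NuRD genes from 0 to 0, 1 and 1, and partner genes from 2 to 7, 7 and 8. With chromosome medians removed and no block, 1 other NuRD gene (Chd3) was called. With a library left out and no block, the genes called ranged from 34 (without WT replicate 1) to 384, members from 0 to 0, other NuRD genes from 0 to 0 and partner genes from 0 to 2. With the block and both libraries of a replicate number left out, the genes called ranged from 1069 (without replicate 2) and 1159 (without replicate 3) to 2038 (without replicate 1), members from 1 to 2, other NuRD genes from 0 to 1 and partner genes from 3 (without replicate 3) through 6 (without replicate 2) to 8.

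The log2 fold change of Zfpm1 stayed between -0.81 and -0.53 and that of Zfpm2 between -0.87 and -0.56 with each library left out, and that of Zfpm2 was -0.85 and -0.62 with pseudocounts of 0.1 and 1. Small differences changed sign over the libraries left out: Mta1 (-0.021 without WT replicate 2 to 0.079), Mbd3 (-0.16 to 0.15), Rbbp4 (-0.074 to 0.086), Rbbp7 (-0.062 to 0.037), and the ratios Mbd3/Mbd2 (-0.060 to 0.39) and Rbbp4/Rbbp7 (-0.062 to 0.060). With the block and without replicate 3, Mbd3 was 0.071, Rbbp4 0.023 and Rbbp7 0.051, and the ratio Zfpm1/Zfpm2 was -0.037 with a pseudocount of 1. The cause of these changes was not tested. Genes near the floor of 3 reads are limited by depth, and all members lie above it.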
